A study of Mus musculus with 16 samples.

Results

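The 37 interferon-stimulated antiviral effectors and regulators were compared between Cul4b knockout (KO) and wild-type (WT) mouse intestinal epithelium. They were chosen by name, as genes known to respond to interferon, but with earlier results of these data known. The shares over all genes set beside their counts are therefore a description. All 37 were found among the 52525 genes listed in all 3 count tables of the study. For the description they were sorted by known role into 6 RNA sensors, 4 transcription factors, 12 antiviral effectors, 8 regulators and 7 other interferon-stimulated genes. Cul4b encodes the scaffold of a cullin-RING ubiquitin ligase, and the study deleted it from the small intestine of C57BL/6 mice to follow what the epithelium does without it. RNA was sequenced from 16 libraries in 3 experiments, each with its own WT controls.

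In the first experiment 4 libraries of small intestinal crypts from KO-IEC mice (pVillin-Cre; Cul4b fn/Y) were set against 4 libraries from WT mice, and in the second 2 libraries of KO-IEC organoids were set against 2 of WT organoids. Villin-Cre acts throughout the intestinal epithelium, so cells of other origin in a crypt preparation keep Cul4b. In the third experiment 2 libraries of KO-CAG organoids (CAG-CreERT2; Cul4b fn/Y), in which the deletion is induced in culture with 4-hydroxytamoxifen, were set against 2 WT organoid libraries. The WT animals of the study were Cul4b fn/Y littermates, and all mice were adult. Whether the WT organoids of the KO-CAG experiment carried the Cre or received 4-hydroxytamoxifen is not given in the sources used here, so effects of the agent and of the deletion cannot be told apart there. The study's methods call the replicates biological, and the labels do not tie a library to an animal or culture.

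Cells detect viral RNA with sensors such as RIG-I and MDA5, which switch on interferon genes. Secreted interferon binds receptors on the same and neighbouring cells, and the kinases Jak1 and Tyk2 then activate Stat2, which acts in a complex with Irf9 that binds a DNA element called ISRE in front of interferon-stimulated genes. The products block viral entry, translation, replication and release, and several of them are sensors or transcription factors that feed back on the response. Intestinal epithelial cells respond strongly to type III interferon, whose receptor consists of Ifnlr1 and Il10rb.

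Libraries held 7348191 to 16881395 counts in genes, so the 3 counts taken as the detection floor corresponded to 0.173 to 0.416 CPM, where CPM are counts scaled with TMM factors, which correct for RNA composition, to a library of 1e+06 counts. Cul4b was lower in all KO libraries than in all WT libraries of each experiment, with log2 fold changes of -4.56 ± 0.25 SE in crypts, -5.50 ± 0.22 SE in organoids of KO-IEC mice and -4.02 ± 0.16 SE in KO-CAG organoids. Epithelial markers such as Epcam and Vil1 were abundant in every group. In bulk RNA, fewer cells of a type and less RNA per cell cannot be told apart.

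The ISRE was searched for in the RefSeq promoter windows of the members, because that element is the known point of contact between the transcription factors and the effectors of this list. A window ran from 250 bases before to 50 bases after a transcription start on GRCm38.p6, and 30 of the 37 members had one. Ifi27, Dhx58, Parp9, Mx2, Rtp4, Tor3a and Parp14 had none. The letters searched were GAAA, any 2 bases and GAAA again, or the same on the other strand (TTTC, any 2 bases, TTTC), for the ISRE, and TTCNNNGAA, which reads the same on both strands, for the GAS element of the response to interferon gamma. The 2 patterns can overlap, as they did in Bst2. An ISRE match lay in the windows of 11 of the 30 members (36.7%) and of 3.99% of all 27025 genes with a window. A GAS match lay in the windows of 6 of the 30 members (20%) and of 9.55% of all genes. The matches are a description of the letters and not bound sites, and they were not used to choose the members. Sequences follow for the 4 members with an ISRE match whose log2 fold changes were largest on average among the 19 called higher in both KO-IEC crypts and KO-CAG organoids, with the matches in capitals, written 5′ to 3′ on the strand of the gene, from 250 bases before to 25 bases from the start.
Ddx60 (chr8:61927837-61928111, plus strand): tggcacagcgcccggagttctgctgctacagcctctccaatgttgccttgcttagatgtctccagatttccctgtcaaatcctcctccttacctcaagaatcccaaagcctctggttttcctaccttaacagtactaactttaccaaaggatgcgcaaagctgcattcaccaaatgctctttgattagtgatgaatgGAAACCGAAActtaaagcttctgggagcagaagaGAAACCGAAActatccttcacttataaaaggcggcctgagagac
Ifit1 (chr19:34640639-34640913, plus strand): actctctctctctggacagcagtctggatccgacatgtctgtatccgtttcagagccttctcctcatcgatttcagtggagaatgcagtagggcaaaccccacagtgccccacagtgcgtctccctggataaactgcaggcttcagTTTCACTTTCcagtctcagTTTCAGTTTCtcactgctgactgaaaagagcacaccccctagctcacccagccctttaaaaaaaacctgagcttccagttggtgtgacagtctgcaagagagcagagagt
Rsad2 (chr12:26456428-26456702, minus strand): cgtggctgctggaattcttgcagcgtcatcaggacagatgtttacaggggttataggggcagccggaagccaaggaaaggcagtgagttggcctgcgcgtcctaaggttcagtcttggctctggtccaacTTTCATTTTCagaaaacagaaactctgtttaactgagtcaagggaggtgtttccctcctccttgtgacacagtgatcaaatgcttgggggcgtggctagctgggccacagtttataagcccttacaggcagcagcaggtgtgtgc
Ddx58 (chr4:40239801-40240075, minus strand): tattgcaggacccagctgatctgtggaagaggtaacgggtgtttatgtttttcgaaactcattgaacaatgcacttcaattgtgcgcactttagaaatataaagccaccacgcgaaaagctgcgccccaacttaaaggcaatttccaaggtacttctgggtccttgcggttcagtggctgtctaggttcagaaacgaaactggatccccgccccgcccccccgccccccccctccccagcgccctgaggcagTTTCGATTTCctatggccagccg
Ddx60 and Ifit1 each held 2 matches upstream of the start, Rsad2 held 1 match upstream, and Ddx58 held 1 match just after the start.

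**Figure D1:**
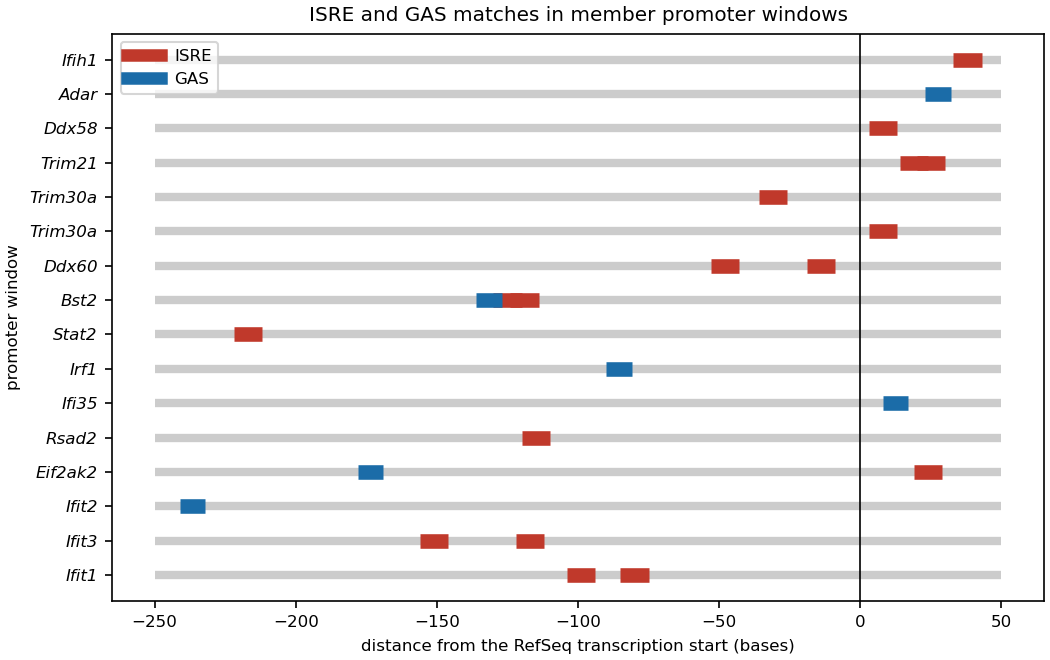
Positions of ISRE matches (red) and GAS matches (blue) in the promoter windows of members with at least 1 match; the x axis is the distance in bases from the RefSeq transcription start at 0 and each grey bar is 1 window. ISRE matches lay in 11 and GAS matches in 6 of the 30 members with a window, and Trim30a has 2 windows.

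In KO-IEC crypts the interferon-stimulated genes were higher than in WT crypts. All 37 members passed the filter on low counts, and 25 were higher at an adjusted p under 0.05 in edgeR's quasi-likelihood test, whereas 4.3% of the 13427 genes tested were higher. None was lower, and 2.66% of all genes were. At least a 2-fold rise was seen in 20 members, against 1.44% of all genes. In 26 members all 4 KO libraries lay above all 4 WT libraries, which held for 8.7% of all genes, and in none were all KO libraries below, which held for 8.79%. A log2 fold change above 0 was found in 36 of the 37, against 48.9% of all genes. The median log2 fold change of the members was 1.14, and that of all genes was -0.01. An exact two-sided permutation test of 4 against 4 libraries gives p = 0.0286 for any member whose groups do not overlap, which is the smallest p it allows.

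**Figure D2:**
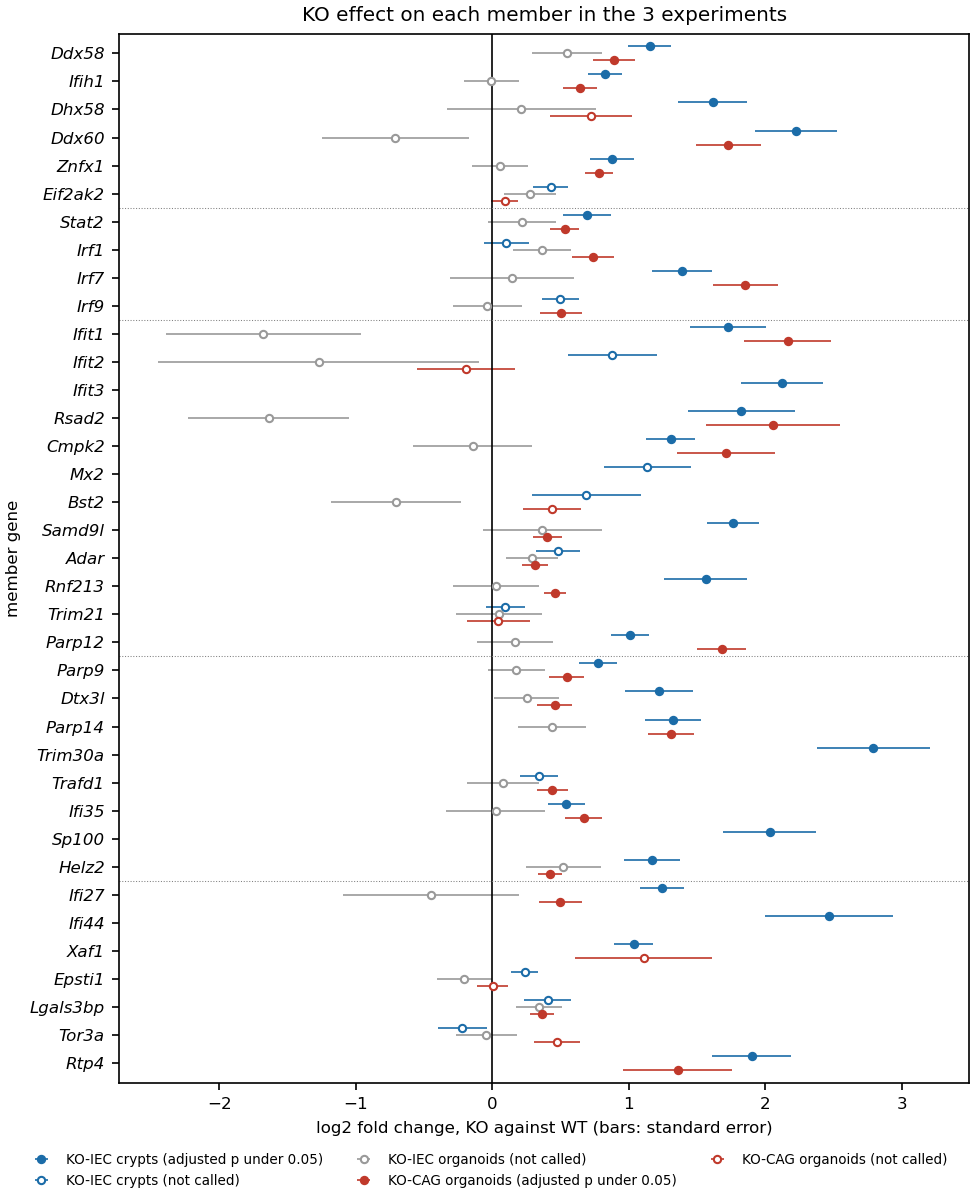
Log2 fold change of KO against WT (x axis, bars are standard errors) for each member (y axis, dotted lines separate the roles) in KO-IEC crypts (blue), the organoids of the same genotype (grey) and KO-CAG organoids (red); filled points had an adjusted p under 0.05. Filled points lie to the right of 0 for 25 members in crypts and 24 in KO-CAG organoids, no grey point is filled, and members without a point were not tested in that experiment.

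The number of calls in crypts rested on single libraries. No member was called without WT 2, without KO 2 or without KO 3, and 4 of the 25 without WT 3 and 8 without WT 1 remained called, while the median log2 fold change stayed between 0.99 and 1.15 whichever library was left out. The calls over all genes fell alike, from 934 to 3 without WT 2, 2 without KO 2, 2 without KO 3, 11 without WT 3 and 20 without WT 1. Among the 25 called members, WT 3 was the lowest WT library for 23, and the highest KO library was KO 3 for 15 and KO 2 for the other 10.

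Marker levels of other cell types were uneven across the crypt libraries. The summed level of 15 leukocyte markers was 111, 83.5, 34.5 and 164 CPM in WT crypts 1 to 4 and 75.6, 102.5, 478 and 258 CPM in KO-IEC crypts 1 to 4. None of the 13 leukocyte markers tested passed the test, and their median log2 fold change was 1.21. At most 1 of the 15 was at 0 in a library. KO 1 and KO 2 lay inside the WT range of the leukocyte sum, and KO 3 and KO 4 lay above it. The median member was 0.88, 1.40, 1.37 and 0.79 above the WT mean on the log2 scale in KO 1 to 4. With a leukocyte score as a covariate, 17 of the 25 calls remained, while the calls among all genes fell from 934 (6.96%) to 158 (1.18%). The summed level of 8 enterocyte markers was 2129 to 9766 CPM in WT and 9125 to 18775 CPM in KO-IEC crypts. None of the 8 was called, and their median log2 fold change was 1.57. With an enterocyte score as a covariate the median of the members was 0.78, no member was called, and 1 gene was called in all. Of 4 stem cell markers Lgr5 and Ascl2 were called lower, and the sum over the 4 was 1385 to 2218 CPM in WT and 861 to 1392 CPM in KO. Among the markers of other lists, Cd79b of B cells was called lower, and Fcer1g of myeloid cells and the epithelial Vil1 were called higher. The part of these markers in the rise of the members was not tested. Libraries also fell into 3 classes by the level of the mitochondrial ribosomal RNAs mt-Rnr1 and mt-Rnr2: WT 1 and KO 1 to 3 were below 100 CPM, WT 4 and KO 4 were between 100 and 2000 CPM, and WT 2 and WT 3 were above 2000 CPM. The low class held 1 WT and 3 KO libraries, the middle class 1 of each and the high class no KO library, so values within a class had no replicate check. The median difference of the members, KO minus WT on the log2 scale, was 0.89 for the libraries of the low class and 0.67 for those of the middle one. With the class as a covariate the median of the members was 0.93, no member was called, and 2 genes were called in all.

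**Figure D3:**
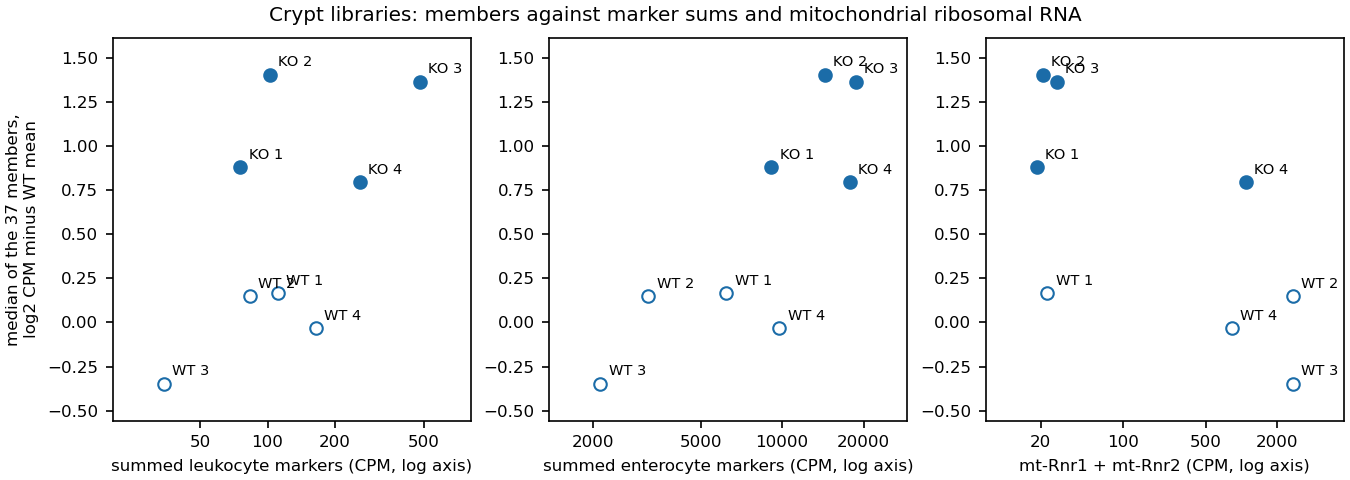
Each point is 1 crypt library (open for WT, filled for KO-IEC); the y axis is the median over the 37 members of log2 CPM minus the WT mean, and the log x axes are the summed CPM of leukocyte markers, of enterocyte markers, and of the 2 mitochondrial ribosomal RNAs. All 4 KO libraries lie above all 4 WT libraries on the y axis, and WT 3 is lowest on the y axis and in both marker sums.

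Of the 6 RNA sensors 5 rose in KO-IEC crypts. Ddx58, which encodes RIG-I, was at 33.1, 30.5, 23.3 and 36.2 CPM in WT crypts 1 to 4 and at 53.7, 70.9, 78.6 and 70.2 CPM in KO-IEC crypts 1 to 4 (log2 fold change 1.15 ± 0.16 SE, edgeR adjusted p = 0.0226). Ifih1, which encodes MDA5, was at 52.7, 52.9, 45.1 and 59.8 CPM in WT and 77.2, 95.8, 108 and 91 CPM in KO libraries (log2 fold change 0.82 ± 0.13 SE, edgeR adjusted p = 0.0263). For both sensors every KO library was above every WT library. Dhx58, encoding LGP2, which modulates RIG-I and MDA5, had fewer reads, at 9.2, 8.46, 4.31 and 6.01 CPM in WT and 16.9, 27.1, 23.5 and 17.9 CPM in KO (log2 fold change 1.61 ± 0.26 SE, edgeR adjusted p = 0.0298). Ddx60, a helicase linked to RIG-I signalling, showed the largest rise of the sensors, from 22.9, 18.2, 8.69 and 19.4 CPM in WT to 51.9, 93.9, 101 and 76.7 CPM in KO (log2 fold change 2.22 ± 0.30 SE, edgeR adjusted p = 0.0226), a 4.67-fold difference. Its lowest KO library, KO 1, was still above its highest WT library, WT 1. Znfx1, a helicase that binds double-stranded RNA, was at 59.6, 55.3, 41.4 and 58.5 CPM in WT and 83.2, 111, 118 and 81.9 CPM in KO (log2 fold change 0.88 ± 0.16 SE, edgeR adjusted p = 0.0383). Eif2ak2, encoding the kinase PKR, which stops translation on sensing double-stranded RNA, had a log2 fold change of 0.43 ± 0.13 SE that did not pass the test (edgeR adjusted p = 0.0658), and its groups overlapped.

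Among the transcription factors, Irf7 and Stat2 rose in KO-IEC crypts, and Irf1 and Irf9 did not pass the test. Irf7, which drives interferon genes and amplifies the response, was at 61.9, 37.3, 30.1 and 35.9 CPM in WT and 97.8, 135, 107 and 92.8 CPM in KO crypts (log2 fold change 1.39 ± 0.22 SE, edgeR adjusted p = 0.0298). Stat2, a subunit of the complex that binds the ISRE, was at 53.8, 49.4, 32.5 and 36.3 CPM in WT and 60.2, 82.5, 72.2 and 62.5 CPM in KO (log2 fold change 0.69 ± 0.18 SE, edgeR adjusted p = 0.0493). The groups did not overlap for either gene. Irf9, the DNA-binding subunit of the same complex, was at 50.1, 51.5, 40.9 and 37.3 CPM in WT and 61.3, 71.4, 67.9 and 53.5 CPM in KO, without overlap, and just missed the threshold (log2 fold change 0.50 ± 0.13 SE, edgeR adjusted p = 0.0533). Irf1, an early factor best known from the response to interferon gamma, was at 180.4, 195, 145 and 167 CPM in WT and 146, 166, 242 and 184 CPM in KO (log2 fold change 0.10 ± 0.16 SE, edgeR adjusted p = 0.688), with 3 of the 4 KO libraries inside the WT range and KO 3 above it.

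**Figure D4:**
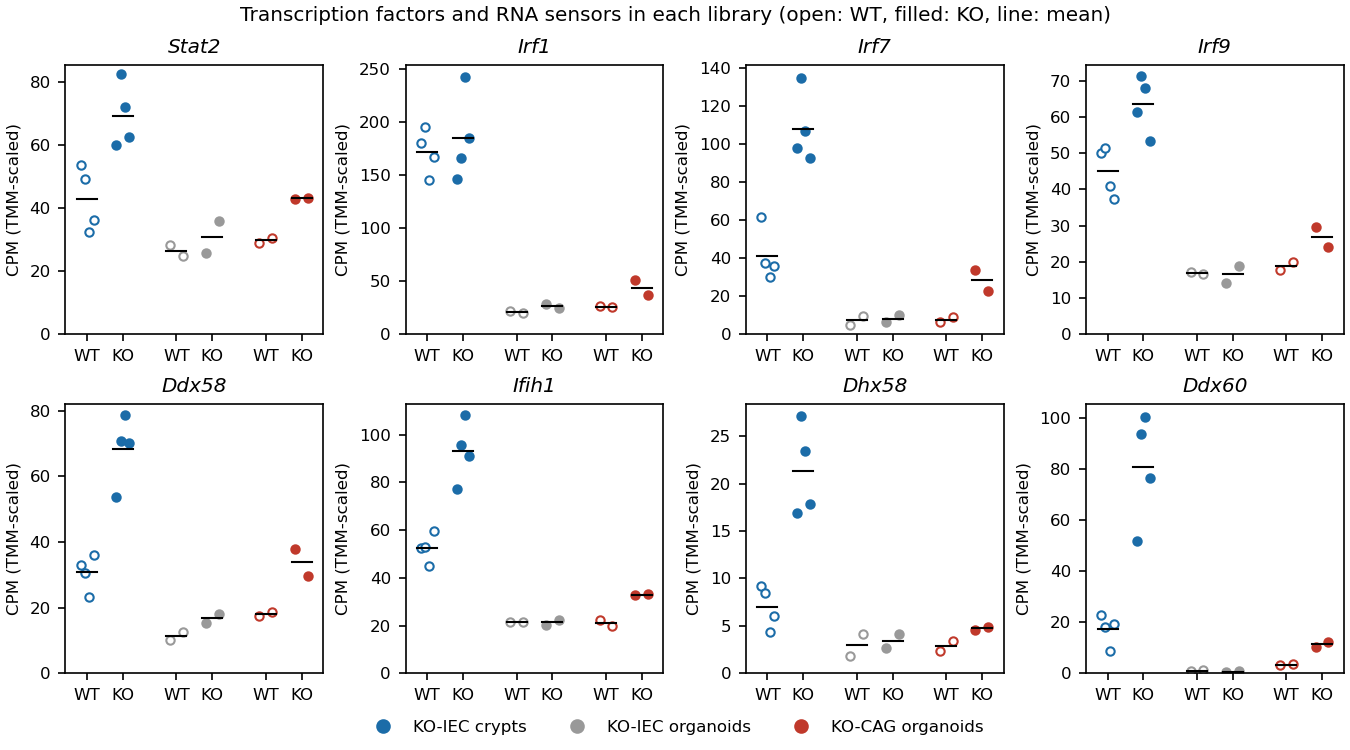
TMM-scaled CPM (y axes, starting at 0) of 4 transcription factors and 4 RNA sensors in each library of crypts (blue), KO-IEC organoids (grey) and KO-CAG organoids (red), open for WT and filled for KO, with a line at each group mean. Crypt KO libraries lie above all WT libraries for every gene shown except Irf1, KO-CAG libraries lie above their WT libraries for all 8 genes, and CPM were scaled within each experiment.

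Of the 12 antiviral effectors 7 rose. Ifit1, whose product binds foreign RNA caps, was at 20.2, 9.78, 9.41 and 11.2 CPM in WT and 29.8, 44.2, 56 and 37.4 CPM in KO crypts (log2 fold change 1.73 ± 0.28 SE, edgeR adjusted p = 0.0298). Ifit3, a partner of Ifit1 with a near-identical neighbouring copy in the mouse genome that can share reads, was at 4.56, 1.69, 1.99 and 3.21 CPM in WT and 11.3, 15.5, 12.1 and 11 CPM in KO (log2 fold change 2.12 ± 0.30 SE, edgeR adjusted p = 0.0234). In both genes WT 1 was the highest WT library and remained below every KO library. Rsad2, encoding viperin, which makes a chain-terminating nucleotide, was at 5.36, 2.26, 1.44 and 2.25 CPM in WT and 6.96, 11, 13.6 and 8.34 CPM in KO (log2 fold change 1.82 ± 0.39 SE, edgeR adjusted p = 0.0424). Cmpk2, a mitochondrial nucleotide kinase 12.8 kb from Rsad2 on chromosome 12, was at 27.7, 21.4, 17.4 and 24.6 CPM in WT and 41.5, 64.6, 61.9 and 57.1 CPM in KO (log2 fold change 1.31 ± 0.18 SE, edgeR adjusted p = 0.0226). This gene pair, transcribed from opposite strands, was thus higher in all KO libraries at both genes.

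Samd9l, which restricts poxviruses and blocks translation, was at 27.1, 22.5, 19.6 and 32.2 CPM in WT and 64.5, 98.6, 99.96 and 80.8 CPM in KO crypts (log2 fold change 1.76 ± 0.19 SE, edgeR adjusted p = 0.0182) and had the lowest p-value of the members. Rnf213, a very large ubiquitin ligase, was at 186, 225, 121 and 162 CPM in WT and 488, 736, 571 and 257 CPM in KO (log2 fold change 1.56 ± 0.30 SE, edgeR adjusted p = 0.0397), with KO 4 closest to the WT range. Parp12, an ADP-ribosyltransferase with antiviral activity, was at 48.5, 43.5, 36.7 and 49.9 CPM in WT and 71.5, 98.9, 102 and 86.3 CPM in KO (log2 fold change 1.01 ± 0.14 SE, edgeR adjusted p = 0.0226). The other 5 effectors overlapped between groups and did not pass the test. These were Ifit2 (log2 fold change 0.88 ± 0.32 SE), Mx2, a dynamin-like GTPase annotated as a polymorphic pseudogene (1.14 ± 0.32), Bst2, the virion tether (0.69 ± 0.40), Adar, the editor of double-stranded RNA (0.48 ± 0.16), and Trim21, an intracellular antibody receptor (0.10 ± 0.14). Ifit2 lies 7.11 kb from Ifit3 on chromosome 19, in the same strand orientation.

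Of the 8 regulators 7 rose, and the largest rise of all members was that of Trim30a, a feedback inhibitor of innate signalling. It was at 4.38, 4.42, 1.12 and 4.25 CPM in WT and 19.8, 35.7, 27.6 and 14.6 CPM in KO crypts (log2 fold change 2.79 ± 0.42 SE, edgeR adjusted p = 0.0258), a 6.93-fold difference, with WT 3 far below the other WT libraries. Sp100, a component of nuclear bodies that silence viral genomes, was at 9.29, 11.5, 5.9 and 14 CPM in WT and 22.4, 47, 61.8 and 34.9 CPM in KO (log2 fold change 2.03 ± 0.34 SE, edgeR adjusted p = 0.0351). Parp14, an ADP-ribosyltransferase, was at 96.7, 83.6, 54.6 and 90.6 CPM in WT and 155, 241, 243 and 176 CPM in KO (log2 fold change 1.32 ± 0.21 SE, edgeR adjusted p = 0.0298). Dtx3l and Parp9 encode a ubiquitin ligase and its partner that act as a complex. Dtx3l was at 47.5, 82.6, 42.1 and 69.2 CPM in WT and 111, 154, 187 and 111 CPM in KO (log2 fold change 1.22 ± 0.25 SE, edgeR adjusted p = 0.0406). Parp9 was at 80.0, 84.1, 66.1 and 78 CPM in WT and 104, 147, 152 and 124 CPM in KO (log2 fold change 0.77 ± 0.14 SE, edgeR adjusted p = 0.0379). The exons of these 2 genes overlap by 458 bases on opposite strands, and since strand use in counting is not given in the sources used here, reads of that stretch cannot be assigned to either. Exons of Irf7, Irf9, Znfx1, Adar and Rnf213 also overlap exons of other genes, by 45, 123, 82, 1365 and 1476 bases. The same holds for Dhx58, Eif2ak2, Irf1, Parp14, Trafd1, Ifi35, Sp100 and Rtp4, by at most 296 bases with any 1 gene.

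Helz2, a helicase that acts as a nuclear receptor coactivator, was at 112, 115, 80.4 and 110.4 CPM in WT and 181, 283, 299.8 and 173 CPM in KO crypts (log2 fold change 1.17 ± 0.21 SE, edgeR adjusted p = 0.0379). Ifi35, a leucine zipper protein that binds Nmi, was at 57.7, 48.1, 39.6 and 53.9 CPM in WT and 61.6, 69.8, 83 and 75.9 CPM in KO (log2 fold change 0.54 ± 0.14 SE, edgeR adjusted p = 0.0491). For both genes the groups did not overlap, although KO 1 of Ifi35 was close to WT 1. Trafd1, a feedback inhibitor of innate signalling, had a log2 fold change of 0.34 ± 0.14 SE (edgeR adjusted p = 0.127).

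Of the 7 other members 4 rose. Ifi44, a cytoplasmic protein of the response, was at 7.5, 5.92, 2.87 and 3.13 CPM in WT and 25.3, 46.2, 25.3 and 10.1 CPM in KO crypts (log2 fold change 2.47 ± 0.47 SE, edgeR adjusted p = 0.0397). Rtp4, a chaperone of membrane receptors, was at 11.1, 7.71, 6.06 and 4.81 CPM in WT and 22.2, 39.1, 28.8 and 20.4 CPM in KO (log2 fold change 1.90 ± 0.29 SE, edgeR adjusted p = 0.0263). KO 2 was highest and KO 4 lowest in both. Ifi27, a small mitochondrial membrane protein, was at 25.8, 19.4, 14.8 and 19.2 CPM in WT and 43.6, 43.9, 53.7 and 46.2 CPM in KO (log2 fold change 1.24 ± 0.16 SE, edgeR adjusted p = 0.0226). Xaf1, a factor that binds the apoptosis inhibitor XIAP, was at 9.38, 8.09, 6.7 and 9.54 CPM in WT and 16.2, 18.6, 17.3 and 16.9 CPM in KO (log2 fold change 1.03 ± 0.14 SE, edgeR adjusted p = 0.0226). These 2 genes had tight KO groups. Epsti1 had a log2 fold change of 0.24 ± 0.10 SE, the secreted glycoprotein gene Lgals3bp of 0.41 ± 0.17, and the torsin gene Tor3a of -0.22 ± 0.18, the only negative value among the members, and none of the 3 passed the test.

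Per transcript length, the members spanned a wide range in WT crypts. Lgals3bp was the most abundant at 125 RPKM, a level scaled by both depth and gene length, followed by Irf1 at 43.2 RPKM, Ifi35 at 28.8 RPKM, Epsti1 at 24.3 RPKM and Bst2 at 24.2 RPKM. Of these 5 only Ifi35 passed the test in crypts. The lowest levels in WT crypts were those of Rsad2 at 0.652 RPKM, Ifi44 at 0.792 RPKM and Trim30a at 0.861 RPKM, and all 3 were called, reaching 2.3, 4.36 and 5.94 RPKM in KO crypts.

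**Figure D5:**
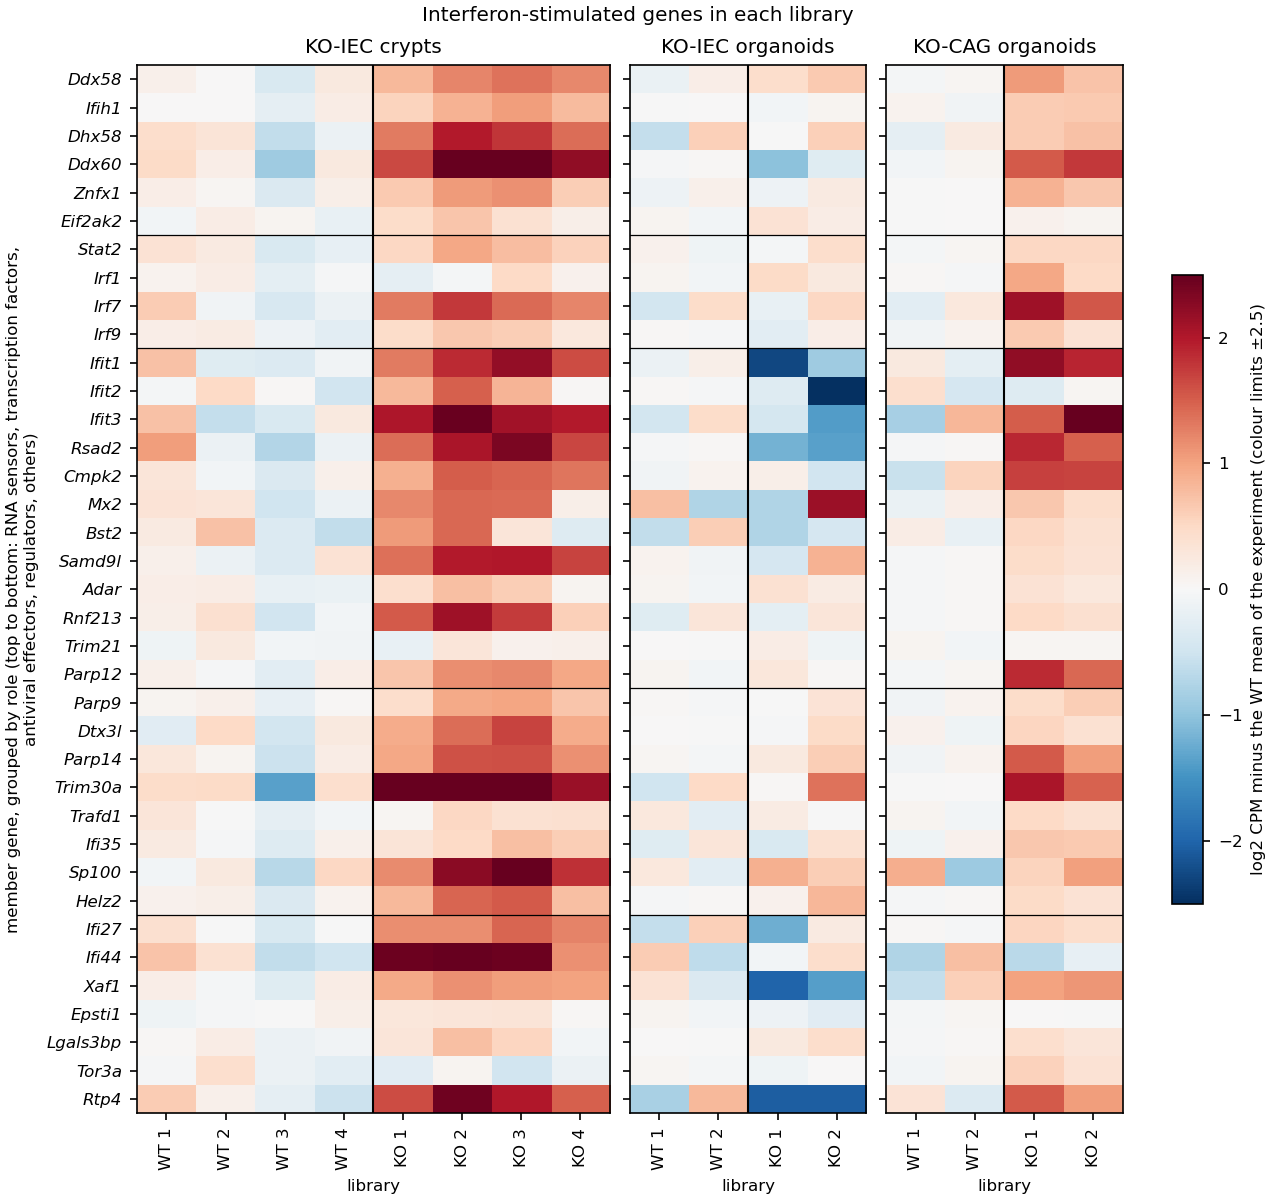
Colour gives log2 CPM minus the WT mean of the same experiment (red higher, blue lower, limits ±2.5, prior count 2) for each member (rows, black lines separate the roles) in each library (columns). KO columns are red for most rows in crypts, mixed in KO-IEC organoids, and red but paler in KO-CAG organoids, and strong colours in rows such as Mx2 and Rtp4 of the organoids rest on few counts.

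In KO-IEC organoids no difference of the members was detected. Of 30 members tested none was called by edgeR, with 0.00717% of all 13938 genes called (Cul4b alone). In the same fit 1 member had an unadjusted p under 0.05 against 4.66% of all genes. DESeq2 called 0 of 37 members and 0.18% of all genes. A log2 fold change above 0 was found in 19 of the 30, against 48.8% of all genes. The median log2 fold change of the members was 0.07, and that of all genes was -0.01. In 7 members both KO libraries lay above both WT libraries and in 5 below, each of which held for 19.4% of all genes, and an exact permutation test of 2 against 2 cannot go below p = 0.333. The precision was low, with standard errors of 0.54 for Ddx60, 0.59 for Rsad2 and 0.72 for Ifit1. The enterocyte marker sum was 5540 and 9655 CPM in WT 1 and 2 and 3934 and 12287 CPM in KO 1 and 2. For stem cell markers it was 2297 and 3441 CPM in WT and 1420 and 333 CPM in KO. No marker of these lists was called, and their part in the values of the members was not tested. Ifit3, Mx2, Trim30a, Sp100, Ifi44, Xaf1 and Rtp4 did not pass the filter on low counts.

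Of the transcription factors Stat2, Irf7 and Irf9 overlapped between genotypes in KO-IEC organoids, and Irf1 did not. Irf7 was at 5.23 and 9.94 CPM in WT and 6.32 and 10.5 CPM in KO-IEC organoids (log2 fold change 0.15 ± 0.45 SE, edgeR adjusted p = 0.952), so replicate 1 was below replicate 2 in both genotypes. Stat2 was at 28.4 and 24.8 CPM in WT and 25.7 and 36.1 CPM in KO, Irf9 at 17.4 and 16.6 CPM in WT and 14.1 and 19 CPM in KO, and Irf1 at 21.7 and 19.95 CPM in WT and 29 and 24.6 CPM in KO. Ifit1, Rsad2, Ifit2 and Ddx60 were among the members with positive fold changes in crypts and negative values in KO-IEC organoids. Ifit1 was at 1.21 and 1.52 CPM in WT and 0.181 and 0.674 CPM in KO (log2 fold change -1.68 ± 0.72 SE, edgeR adjusted p = 0.856), and Rsad2 was at 0.69 and 0.729 CPM in WT and 0.241 and 0.202 CPM in KO (log2 fold change -1.64 ± 0.59 SE, edgeR adjusted p = 0.856). Ifit2 was at 3.34 and 3.18 CPM in WT and 2.59 and 0.0674 CPM in KO (log2 fold change -1.27 ± 1.18 SE, edgeR adjusted p = 0.856). Ddx60 was at 1.09 and 1.13 CPM in WT and 0.481 and 0.877 CPM in KO (log2 fold change -0.71) and did not pass the test. These are few reads, since Ifit1 had 44 counts over both WT libraries and 13 over both KO libraries, and Rsad2 23 and 7. Rtp4 had 15 counts in WT and 0 in KO libraries, where 0 counts allow up to 0.181 CPM in KO 1 and 0.202 CPM in KO 2.

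In KO-CAG organoids the members were higher again. Of 32 members tested 24 were called higher and none lower, where 18.1% of all 13598 genes were called higher and 13.4% lower. A rise of at least 2-fold was called in 8 members, against 6.36% of all genes. Both KO libraries lay above both WT libraries in 29 of the 32 members, which held for 35.5% of all genes, and below in none, which held for 34.2%, and an exact permutation test cannot go below p = 0.333 here. A log2 fold change above 0 was found in 31 of the 32, against 50.1% of all genes. The median log2 fold change of the members was 0.54, and that of all genes was 0.00. Ifit3, Mx2, Trim30a, Sp100 and Ifi44 did not pass the filter on low counts. DESeq2 called 15 of 37 members and 18% of all genes, and 1 fit of all 16 libraries called 6 of 37 and 3.06%. The main fit called 31.5% of all genes, counted like these in either direction. With 1 library left out the median log2 fold change of the members was between 0.51 and 0.61. Leukocyte markers were near the floor, with 1.68 to 4.41 CPM summed over 15 genes in every library and Cd3d, Cd8a, Gzma and Gzmb at 0 counts in all 4. The enterocyte marker sum was 4482 to 4825 CPM in WT and 10246 to 13058 CPM in KO, with 7 of 8 markers called higher. The Paneth cell marker sum was 3503 to 3904 CPM in WT and 5947 to 6298 CPM in KO, with 4 of 5 markers called higher. Of 7 general epithelial markers 5 were called higher, and of 4 stem cell markers 2 were called lower, with sums of 2582 to 3092 CPM in WT and 2112 to 2485 CPM in KO. The part of these marker levels in the rise of the members was not tested.

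All 4 transcription factors rose in KO-CAG organoids. Irf7 was at 6.37 and 9.3 CPM in WT and 34.1 and 22.9 CPM in KO-CAG organoids (log2 fold change 1.85 ± 0.24 SE, edgeR adjusted p = 0.000363), a 3.61-fold difference. Irf1 was at 26.4 and 25.7 CPM in WT and 50.9 and 36.8 CPM in KO (log2 fold change 0.74 ± 0.15 SE, edgeR adjusted p = 0.00546). Stat2 was at 29.1 and 30.8 CPM in WT and 43.1 and 43.2 CPM in KO (log2 fold change 0.53 ± 0.11 SE, edgeR adjusted p = 0.00463). Irf9 was at 17.8 and 20.03 CPM in WT and 29.7 and 24.2 CPM in KO (log2 fold change 0.50 ± 0.15 SE, edgeR adjusted p = 0.0298). KO 1 was the higher KO library for Irf7, Irf1 and Irf9, and no group overlapped.

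Of the 6 sensors 4 rose in KO-CAG organoids. Ddx60 was at 3.24 and 3.62 CPM in WT and 10.4 and 12.3 CPM in KO (log2 fold change 1.73 ± 0.24 SE, edgeR adjusted p = 0.000504). Ddx58 was at 17.4 and 18.7 CPM in WT and 38 and 29.6 CPM in KO (log2 fold change 0.89 ± 0.15 SE, edgeR adjusted p = 0.00178), and Znfx1 was at 38.3 and 38.6 CPM in WT and 70.7 and 61.9 CPM in KO (log2 fold change 0.78 ± 0.10 SE, edgeR adjusted p = 0.00044). Ddx60 was the sensor with the largest difference in both crypts and KO-CAG organoids, and no link between ISRE matches and fold changes was tested. Ifih1 had a log2 fold change of 0.64 ± 0.13 SE and was also called, whereas Dhx58 (0.72 ± 0.30) and Eif2ak2 (0.09 ± 0.10) were not.

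Among the effectors 7 of 10 tested rose. Ifit1 was at 1.92 and 1.29 CPM in WT and 8.18 and 6.52 CPM in KO-CAG organoids (log2 fold change 2.16 ± 0.32 SE, edgeR adjusted p = 0.000806), the largest difference of the members here, and rested on 26 counts over both WT libraries and 127 over both KO libraries. Rsad2 was at 0.481 and 0.517 CPM in WT and 2.5 and 1.82 CPM in KO (log2 fold change 2.06 ± 0.49 SE, edgeR adjusted p = 0.0102), and its neighbour Cmpk2 was at 1.2 and 2.84 CPM in WT and 6.65 and 6.52 CPM in KO (log2 fold change 1.71 ± 0.36 SE, edgeR adjusted p = 0.00556). In all 3 genes both KO libraries were above both WT libraries. Parp12 was at 10.1 and 10.9 CPM in WT and 39 and 28.7 CPM in KO (log2 fold change 1.68 ± 0.18 SE, edgeR adjusted p = 0.00013). Samd9l, Adar and Rnf213 rose less, with log2 fold changes of 0.40 ± 0.11, 0.31 ± 0.10 and 0.46 ± 0.08 SE. Bst2 (0.44 ± 0.21), Trim21 (0.04 ± 0.23) and Ifit2 (-0.19 ± 0.36) did not pass the test. Ifit3 was listed at 0 and 0.517 CPM in WT and 0.97 and 2.4 CPM in KO, and was not tested.

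All 6 regulators tested rose in KO-CAG organoids. Parp14 was at 17.9 and 20.03 CPM in WT and 55.3 and 39.4 CPM in KO (log2 fold change 1.31 ± 0.17 SE, edgeR adjusted p = 0.000366). Ifi35 was at 16.9 and 19.6 CPM in WT and 29.3 and 28.9 CPM in KO (log2 fold change 0.67 ± 0.14 SE, edgeR adjusted p = 0.00464), and Parp9 was at 23.8 and 26.6 CPM in WT and 34.5 and 38.6 CPM in KO (log2 fold change 0.54 ± 0.12 SE, edgeR adjusted p = 0.00849). Dtx3l, Trafd1 and Helz2 had log2 fold changes of 0.46 ± 0.13, 0.44 ± 0.11 and 0.42 ± 0.09 SE. Trim30a, the member with the largest rise in crypts, had 2 counts over both WT libraries and 17 over both KO libraries, too few for a test. Among the other members Rtp4 was at 1.8 and 1.03 CPM in WT and 4.44 and 3.07 CPM in KO (log2 fold change 1.36 ± 0.40 SE, edgeR adjusted p = 0.0259), Ifi27 at 13.2 and 12.7 CPM in WT and 19 and 17.6 CPM in KO (log2 fold change 0.50 ± 0.16 SE, edgeR adjusted p = 0.0348), and Lgals3bp at 318 and 333 CPM in WT and 437 and 400.2 CPM in KO (log2 fold change 0.36 ± 0.09 SE, edgeR adjusted p = 0.0121). Xaf1 (1.11 ± 0.50), Tor3a (0.48 ± 0.17) and Epsti1 (0.00 ± 0.11) did not pass the test.

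Side by side, 19 members were called higher in both KO-IEC crypts and KO-CAG organoids, 6 in crypts alone (Dhx58, Ifi44, Ifit3, Sp100, Trim30a and Xaf1, of which 4 were not tested in KO-CAG organoids), 5 in KO-CAG organoids alone (Adar, Irf1, Irf9, Lgals3bp and Trafd1) and 7 in neither. Of all genes tested, 4.3% were called higher in crypts and 18.1% in KO-CAG organoids. The share of all genes called higher in both was not computed. The 2 experiments share no libraries. Over the 32 members tested in both, the log2 fold changes had a Pearson correlation of 0.63 and a Spearman correlation of 0.59. KO-IEC organoids had values of -0.33 and -0.14 with crypts and of -0.37 and -0.16 with KO-CAG organoids, over 30 members each. These are a description, since the members share libraries, and the correlations over all genes were not computed. Samd9l and Rnf213 had larger values in crypts, at 1.76 ± 0.19 and 1.56 ± 0.30 SE against 0.40 ± 0.11 and 0.46 ± 0.08, and Parp12 and Irf1 had larger values in KO-CAG organoids, at 1.68 ± 0.18 and 0.74 ± 0.15 against 1.01 ± 0.14 and 0.10 ± 0.16.

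The difference of the KO effect between experiments was tested in 1 fit of all 16 libraries and 15585 genes. No member had an adjusted p under 0.05 for crypts against KO-CAG organoids, where 0.135% of all genes did in the positive direction and 0.237% in the negative, nor for crypts against KO-IEC organoids (0.00642% positive, 0% negative) or KO-CAG against KO-IEC organoids (0.199% positive, 0.186% negative). At an unadjusted p under 0.05, 22 members had a larger effect in crypts than in KO-IEC organoids and none a smaller one, and 11 had a larger effect in KO-CAG than in KO-IEC organoids and none a smaller one. Between crypts and KO-CAG organoids 4 were larger in crypts and 3 in KO-CAG organoids. The share of all genes at an unadjusted p under 0.05 was not computed for these contrasts. These counts therefore cannot be set against a background and are not read as particular to the members. Parp12 came closest, with a difference of 1.502 ± 0.302 SE on the log2 scale between KO-CAG and KO-IEC organoids (edgeR adjusted p = 0.0524), followed by Ifit1 in the same contrast at 3.83 ± 0.78 SE (edgeR adjusted p = 0.0594). That KO-IEC organoids responded differently from the other experiments was therefore not shown for any single member.

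The wider pathway was followed with 37 further genes, 9 interferon ligands, 6 receptor subunits and 22 signalling genes. None of the ligands had enough reads for a test in any experiment. Over all crypt libraries the 9 ligands had 20 counts together, with Ifnb1 and Ifnl2 at 0, and at most 4 counts of a ligand in a library. In KO-IEC organoids all 9 were at 0, and in KO-CAG organoids 7 were. Of the 28 other genes tested in crypts 9 were higher, against 4.3% of all genes, and none lower. These were the receptor subunits Ifnlr1 (log2 fold change 0.81 ± 0.19 SE), Il10rb (0.57 ± 0.11) and Ifngr2 (0.54 ± 0.13), the kinases Jak2 (0.75 ± 0.18) and Tbk1 (0.56 ± 0.13), the endosomal RNA sensor Tlr3 (0.66 ± 0.16), the RIG-I activator Trim25 (0.70 ± 0.14), the nucleic acid sensor Zbp1 (1.24 ± 0.28) and Usp18, the feedback inhibitor of the interferon receptor (2.23 ± 0.28). In KO-CAG organoids 8 of 25 were higher, against 18.1% of all genes, namely Ifnar2 (1.12 ± 0.17), Ifnlr1 (0.70 ± 0.18), Il10rb (0.43 ± 0.12), Jak1 (0.34 ± 0.08), Jak2 (0.36 ± 0.10), Tbk1 (0.29 ± 0.09), Ikbke (0.43 ± 0.10) and the adaptor gene Ticam1 (0.56 ± 0.12), and the transcription factor Irf8 was lower (-0.48 ± 0.09). Both subunits of the type III interferon receptor were thus called higher in crypts and in KO-CAG organoids. None of the 26 genes tested in KO-IEC organoids was called.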

How the data were processed

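RNA-seq gene counts as deposited were used, 1 table per experiment, 16 libraries in all. Per the labels the authors aligned reads with HISAT2 2.0.5 and counted them with featureCounts 1.5.0-p3, which left whole-number counts per gene, not normalized. The genome build, annotation and strand use of the counting are not given in the sources used here. Member positions equalled those of GENCODE M21 for 36 of 37 genes. Replicates were kept apart, and none agreed within sampling noise.

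KO was tested against WT within each experiment with edgeR 4.0.16 in R 4.3.3, using filterByExpr, TMM scaling, the quasi-likelihood test and Benjamini-Hochberg adjustment over all genes tested, with no replicate block, and genes were called at an adjusted p under 0.05. The scripts were tested on simulated data. CPM are TMM-scaled, RPKM use the deposited gene lengths, and log2 CPM use a prior count of 2. Differences between experiments were contrasts in 1 fit of 16 libraries. Alternatives were DESeq2 1.42.0, other scalings and filters, covariates, a replicate block and leaving out libraries. The enterocyte covariate and the removal of WT 2 and 3 or KO 3 and 4 were chosen after seeing the data.

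Deviations of same-numbered crypt libraries had correlations of -0.04, 0.19, -0.40 and 0.43 for numbers 1 to 4, without a common sign. WT 4 and KO 4, with the highest value, were also the 2 libraries of the middle mt-rRNA class. The organoid groups have only 2 pairs, and numbers were not taken as pairing.

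The members and lists were chosen with earlier results of these data known. All members are named. Values of every library are given for the transcription factors, the members called in KO-IEC crypts and, per role, the 3 largest called in KO-CAG organoids, and members within 100 kb of each other were read as neighbours.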

Additional observations from a re-analysis of the deposited data

Results flagged for a closer look

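In 74 groups of 4 crypt libraries, the gap of an extreme library to its nearest neighbour was divided by the range of the group. This ratio exceeded Dixon's 95% critical value in 5 groups, and chance alone flags about 1 in 20 groups. Ifit1 was at 20.2 CPM in WT 1, where the other WT libraries were at 9.41 to 11.2 CPM. Trim21 was at 16.4 CPM in WT 2, where the others were at 12.7 to 13.2 CPM. WT 3 was low for Trim30a, at 1.12 CPM against 4.25 to 4.42 CPM, and for Helz2, at 80.4 CPM against 110.4 to 114.5 CPM. Epsti1 was at 57.2 CPM in KO 4, where the other KO libraries were at 68.1 to 70.1 CPM.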

How the results depend on the processing

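In KO-IEC crypts, where 25 members and 934 genes in all were called and the members' median was 1.14, 0 members were called with a replicate block (4 genes in all, median 1.09, numbers shared without pairing), with the mt-rRNA class as covariate (2 genes, 0.93), with an enterocyte score as covariate (1 gene, 0.78), without WT 2 and 3 (1 gene, 1.05) and without KO 3 and 4 (7 genes, 1.15). With 1 library left out 0 to 27 members were called, with medians of 0.99 to 1.15. With a fold change of at least 2 as a further condition 20 were called. The other scalings and filters, DESeq2 and 1 fit of all 16 libraries left 23 to 25 of the 25 called. Under these settings the share of all genes called ran from 4.71% (library size only) to 18% (DESeq2), against 6.96% in the main fit. In KO-IEC organoids 0 to 3 members were called with 1 library left out, the 3 without KO 1, where 2322 genes were called, and none under the other settings, the block included. In KO-CAG organoids DESeq2 called 15 of 37 members, against 18% of all genes, and 1 fit of all 16 libraries called 6 of 37, against 3.06%. With a fold change of at least 2 the calls were 8 of 32, against 8.6%, and with the replicate block 25 of 32, against 36.3%. The median log2 fold change was 0.64 without a filter, 0.63 with DESeq2, 0.63 in the joint fit and 0.51 to 0.61 with 1 library left out. In the contrast of KO-CAG with KO-IEC organoids, scaling by library size alone called 2 members, Parp12 and Ifit1, and 56 genes in all. No called member changed sign under any setting run. Of the members not called, Irf1 in crypts was at -0.11 with the leukocyte and -0.20 with the enterocyte covariate, at -0.13 without KO 3 and 4, and between -0.041 and 0.20 with 1 library left out. Epsti1 in KO-CAG organoids was at -0.00315 with DESeq2 size factors, -0.0282 with library size only, -0.00247 with at least 10 counts in every library, -0.00618 with DESeq2 and -0.00471 in the joint fit. With 1 library left out it was between -0.065 and 0.052, Ifit2 between -0.57 and 0.32 and Trim21 between -0.037 and 0.11 in KO-CAG organoids, and in KO-IEC organoids Stat2 was between -0.049 and 0.44, Irf7 between -0.26 and 0.66, Irf9 between -0.26 and 0.16 and Samd9l between -0.42 and 0.87. Where a group was left with 1 library, it was assumed to vary like the other group. The causes were not tested. Counts limit the organoid results for Ifit1, Rsad2, Ifit3, Trim30a and Rtp4.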
